A study of Mus musculus with 170 samples.

Results

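A set of 10 imprinted genes that encode regulators of fetal growth was followed in single cells of the embryonic mouse heart: Igf2, Igf2r, Grb10, Peg3, Mest, Plagl1, Dlk1, Peg10, Impact and Ndn. They were picked by name, as 10 of the 40549 rows of the expression table, and all 10 had TPM (a share of a cell's transcripts already corrected for transcript length) above 0 in more than 10 cardiomyocyte-like (CM-like) cells, the limit for entering the comparison. The cells came from the ventricular part of hearts dissected at embryonic day 9.5 (E9.5) from C57BL/6 mice. Control cells, labelled wild type, were Dgcr8 loxP/loxP with the ROSA26 mT/mG/+ reporter and no Cre. Conditional knockout (cKO) cells were Mesp1Cre/+ on the same floxed Dgcr8 and reporter background, so the floxed alleles and the reporter were shared by both genotypes. Mesp1-Cre acts in early mesoderm progenitors, and the study kept cKO cells whose reporter had recombined. A Smart-seq2 profile was available for 143 of the 170 labelled cells. No label named the embryo of a cell, so each genotype is treated as 1 sample, SDs are across cells, and no test of the genotype was possible.

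Dgcr8 is the RNA-binding partner of Drosha, and the pair cuts microRNA hairpins out of their primary transcripts. Imprinted genes are expressed mainly from the copy inherited from one parent, and many sit in clusters where a methylated control region sets coding genes and long non-coding RNAs on opposite parental copies. Igf2r and, in most tissues, Grb10 are expressed from the maternal copy, and Igf2, Peg3, Mest, Plagl1, Dlk1, Peg10, Impact and Ndn from the paternal copy. Several imprinted transcripts also carry microRNA hairpins, which ties them to Dgcr8 in a second way.

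Among the 10 genes, the annotation (GENCODE M21 on GRCm38, the mm10 build named for the files) places a hairpin inside Igf2 and Mest on the same strand, and none inside the other 8. Mir483 lies in an intron of Igf2 (chr7:142650766-142666816, minus strand) and Mir335 in an intron of Mest (chr6:30723547-30748465, plus strand). In the Dlk1 domain on chromosome 12 the hairpins lie in the non-coding neighbours: 1 in Meg3, 3 in Rian and 14 in Mirg (chr12:109729764-109749460, plus strand), among them Mir541. The mature sequences of these 3 loci are shown because Dgcr8 and Drosha would cut their hairpins from the transcripts described here, before Dicer makes the mature forms. Capitals mark the seed, bases 2 to 8 from the 5′ end, and the sequences and coordinates are from RefSeq on GRCm38.p6.
mmu-miR-483-3p (chr7:142654932-142654952, minus strand): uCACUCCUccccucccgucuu
mmu-miR-483-5p (chr7:142654968-142654989, minus strand): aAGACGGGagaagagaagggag
mmu-miR-335-5p (chr6:30741314-30741336, plus strand): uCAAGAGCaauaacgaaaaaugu
mmu-miR-335-3p (chr6:30741354-30741375, plus strand): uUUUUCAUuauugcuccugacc
mmu-miR-541-5p (chr12:109742422-109742446, plus strand): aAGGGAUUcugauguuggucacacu
mmu-miR-541-3p (chr12:109742466-109742487, plus strand): uGGCGAACacagaauccauacu
The 6 seeds differ from one another. The single-cell profiles are of polyadenylated RNA, and levels of the mature microRNAs were not analysed here.

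Clustering on 55 marker genes, none of them among the 10, gave 94 CM-like cells, 27 control (19 in batch 1 and 8 in batch 2) and 67 cKO (33 and 34), in which all 15 cardiomyocyte markers lay above the other cells. The other 49 cells were 47 control and 2 cKO cells, so the genotypes were compared in CM-like cells. The median number of detected genes in CM-like cells was 8458 (control) and 9845 (cKO) in batch 1 and 9704 and 7765 in batch 2. Dgcr8 itself was at 2.41 ± 2.89 log2(TPM + 1) in control and 1.66 ± 2.46 in cKO CM-like cells, with TPM above 0 in 17 of 27 and 32 of 67 cells. The Dgcr8 difference of -0.75 was -0.20 in batch 1 and -1.06 in batch 2, so it came mainly from batch 2. TPM of at least 10 was seen in 8 of 27 control and 20 of 67 cKO cells. Gene-level TPM of Dgcr8 can also count reads outside the floxed part, which was not examined here. Xist had TPM of at least 1 in 0 of 27 control cells (a limit of 11.1%) and 64 of 67 cKO cells, and the Y-linked Ddx3y in 18 of 27 and 0 of 67 (a limit of 4.48%), so sex and genotype cannot be told apart. One control cell of batch 2 stood apart with 3805 detected genes. In 6 of the 10 genes no control CM-like cell was lower, and without Dlk1 and Peg10 this count was 4. Dlk1, Peg10, Impact and Ndn were at 0 in it, a level that other control CM-like cells shared.

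By median TPM the order in control CM-like cells was Mest, Igf2, Grb10, Ndn, Igf2r, Plagl1, Peg3 and Impact, with Dlk1 and Peg10 at 0, and the ranges of neighbours in this order overlapped. Together the 10 genes took 0.0196 to 0.606% (median 0.321%) of the TPM of a control and 0.112 to 1.004% (median 0.302%) of a cKO CM-like cell. Their summed share was thus alike, while single genes moved in either direction.

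Igf2, Igf2r and Grb10 had higher means in cKO than in control CM-like cells in each batch, and Igf2r reached the 1-unit difference used below to call a gene. Igf2, the fetal growth factor, ranged from 62.8 to 3095 TPM (median 585) in control and from 124 to 4578 TPM (median 1010) in cKO cells. The ranges overlapped widely, and 53 of 67 cKO cells (79.1%) lay above the control median. The mean was 9.02 ± 1.30 log2(TPM + 1) in control and 9.93 ± 1.03 in cKO cells, a difference of 0.91 (0.72 in batch 1 and 0.99 in batch 2), which is within 1 SD of the control cells.

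Igf2r, the receptor that takes Igf2 to lysosomes for breakdown (chr17:12682406-12769664, minus strand), ranged from 1.44 to 727 TPM (median 86.1) in control and from 8.14 to 948 TPM (median 194) in cKO cells. More cKO cells lay above the control median for Igf2r than for any other of the 10 genes, 55 of 67 (82.1%). Its mean was 6.39 ± 1.45 in control and 7.49 ± 1.26 log2(TPM + 1) in cKO cells, a difference of 1.10 (1.21 and 0.81 by batch). Grb10, an adaptor that dampens insulin and IGF receptor signalling (chr11:11930508-12038683, minus strand), was the least variable of the genes detected in every CM-like cell, at 46.1 to 409 TPM (median 182) in control and 57.1 to 709 TPM (median 277) in cKO cells. Its 2 batches gave close differences, 0.71 and 0.58 on the log2 scale. Of 67 cKO cells, 9 lay above the highest of 27 control cells, a count that the larger number of cKO cells favours. These 3 genes, of both parental origins, lay on the same side in both batches.

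The 2 zinc-finger genes went in opposite directions. Peg3, a transcriptional regulator linked to growth and cell death (chr7:6703892-6730431, minus strand), ranged from 0.0400 to 174 TPM (median 47.01) in control and from 0.868 to 295 TPM (median 69.8) in cKO cells. Its mean was 4.74 ± 2.10 in control and 5.94 ± 1.60 log2(TPM + 1) in cKO cells, a difference of 1.20 (0.75 in batch 1 and 1.23 in batch 2). Peg3 was also higher in batch 2 than in batch 1 within each genotype, 5.42 against 4.46 in control and 6.65 against 5.21 in cKO cells, so the batch step was about as large as the genotype step. Plagl1, a transcription factor that regulates other imprinted growth genes (chr10:13060504-13131694, plus strand), ranged from 0.261 to 212 TPM (median 61.2) in control and from 0 to 578 TPM (median 41.1) in cKO cells. The Plagl1 difference of -0.67 came mainly from batch 2 (-1.26) and was small in batch 1 (-0.16).

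Mest and Ndn were also lower in cKO cells, in each batch, with wide spreads. Mest, a hydrolase-family protein of the endoplasmic reticulum and the most abundant of the 10 genes by median, ranged from 5.93 to 4765 TPM (median 1633) in control and from 4.02 to 8586 TPM (median 1014) in cKO cells. The ranges overlapped almost entirely. The mean was 10.07 ± 2.18 in control and 9.51 ± 2.45 log2(TPM + 1) in cKO cells, a difference of -0.56 (-0.87 and -0.21). Ndn, a MAGE-family protein that restrains cell proliferation (chr7:62346569-62350262, plus strand), ranged from 0 to 425 TPM (median 122) in control and from 0 to 338 TPM (median 74.2) in cKO cells. For Ndn no cKO cell exceeded the highest control cell, which held for none of the other 9 genes. Its difference was -0.86 (-0.63 and -1.32), and -1.09 without the control cell of 3805 detected genes.

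Impact, a regulator of the translational stress kinase Gcn2, was at 0 to 122 TPM (median 11.5) in control and 0 to 191 TPM (median 20.6) in cKO cells. Its cells fell into a group near 0 and a clearly expressing group in both genotypes, and TPM of at least 1 was seen in 20 of 27 control (74.1%, exact Clopper-Pearson 95% interval 53.7 to 88.9%) and 48 of 67 cKO cells (71.6%, 59.3 to 81.99%). The intervals here and below cover counting error only. The difference of 0.44 (0.38 and 0.84) was small against SDs above 2 log2 units in both genotypes, and the share of cells was nearly the same.

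Dlk1 and Peg10 were at or near 0 in most CM-like cells. Dlk1, a Notch-related membrane protein of progenitor cells (chr12:109452823-109463336, plus strand), had a median of 0 TPM in both genotypes and maxima of 52.5 TPM in control and 112 TPM in cKO cells. Its difference turned with the batch: 19 of 33 cKO cells (57.6%) but 5 of 19 control cells (26.3%) had TPM above 0 in batch 1, and 6 of 34 cKO cells (17.6%) against 3 of 8 control cells (37.5%) in batch 2. Peg10, a retrotransposon-derived gene needed in the placenta (chr6:4747306-4760517, plus strand), reached at most 4.18 TPM in control and 25.3 TPM in cKO cells. TPM of at least 1 was seen for Peg10 in 1 of 27 control (3.70%, 0.0937 to 18.97%) and 18 of 67 cKO cells (26.9%, 16.8 to 39.1%). Of the 67 cKO cells, 8 lay above the highest of the 27 control cells, again with more cKO cells to do so. At TPM above 0 the shares were closer, 11 of 27 (40.7%) and 32 of 67 (47.8%), so the gap lay among cells with more than a trace of Peg10.

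By the rule used across the table, a difference of at least 1 on the log2(TPM + 1) scale with the same sign in both batches, 2 of the 10 genes were called higher in cKO (Igf2r and Peg3) and 0 lower. Across the 15071 genes that entered the comparison, 6.34% were called higher and 6.18% lower, and a count over 10 genes is too small to be read as different from these shares. Among genes at TPM of at least 1 in at least 50% of the CM-like cells of either genotype, which 8 of the 10 are, the shares were 11.9% and 12.1%. In sign alone 6 of the 10 genes were higher in both batches, 3 were lower in both and 1 (Dlk1) was opposite, beside 29.9%, 25.05% and 44.8% of all genes. Their median difference was 0.46, against 0.05 over all genes. The median over all genes itself differed by batch, 0.17 in batch 1 and -0.20 in batch 2. No test of these counts was made.

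**Figure D1:**
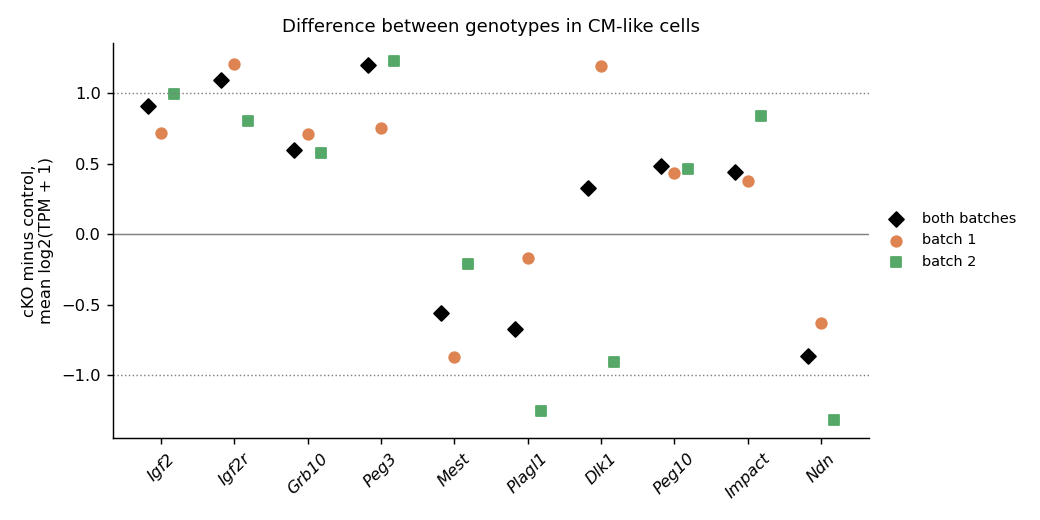
Difference of the mean log2(TPM + 1), cKO minus control, for each gene over both batches (diamonds), batch 1 (circles) and batch 2 (squares), with dotted lines at 1 and -1. Igf2r (1.10) and Peg3 (1.20) are past the upper line over both batches, and Dlk1 is the gene whose batches lie on either side of 0.

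Both calls were sensitive to single settings. Without the 4 control and 6 cKO cells in which mitochondrial transcripts exceeded 10% of TPM, an alternative chosen after seeing the data, the difference of Igf2r was 0.88 and that of Peg3 0.91. With the batches weighted equally, also chosen after seeing the data, Igf2r was at 1.01 and Peg3 at 0.99. The sign of Igf2, Igf2r, Grb10, Peg3 and Ndn held in all 17 alternatives, while Mest, Plagl1, Impact, Dlk1 and Peg10 each changed sign in at least 1. Changing the gene filter leaves each difference as it is, and 6 clusters gave the same CM-like cells, so neither could turn a sign. Markers of other cell types were not absent from CM-like cells. The summed log2(TPM + 1) of the 13 endothelial markers had a median of 7.07 (1.49 to 18.1) in control and 7.02 (2.32 to 22.03) in cKO cells, and 1 of the 13 had TPM of at least 1 in most cells of either genotype. The other lists had higher medians in cKO cells: the 14 mesenchymal markers summed to 15.004 (3.72 to 44.1) in control and 18.8 (9.41 to 33.3) in cKO cells, the 6 epicardial markers to 4.85 (0.385 to 30.03) and 6.16 (0 to 17.9), and the 7 erythroid markers to 1.23 (0 to 23.8) and 4.49 (0 to 22.3). Of the mesenchymal markers, Vim, an intermediate filament protein, had medians of 160 TPM in control and 351 TPM in cKO cells (a log2 difference of 1.69). Fn1, the matrix protein fibronectin, had 14.7 and 93.1 TPM (2.27), and both were called higher. The other mesenchymal markers were not called and went in either direction, from -0.46 for Col1a2 to 0.79 for Serpinf1. Postn did not enter the comparison, being at 0 in all cKO and at most 0.873 TPM in control CM-like cells. Cdh5, Emcn, Tek, Wt1, Upk3b or Tcf21 reached TPM of at least 10 in 13 control and 36 cKO cells, and without these cells the differences were 1.26 for Igf2r and 1.40 for Peg3.

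Several neighbours of these genes in their imprinted domains differed by more than any of the 10 genes. H19, the maternally expressed non-coding RNA beside Igf2 (chr7:142575529-142578143, minus strand), was at 7.73 ± 1.94 log2(TPM + 1) in control and 8.603 ± 1.56 in cKO cells, a difference of 0.88 (1.03 and 0.85), close to the 0.91 of Igf2. Airn, the antisense RNA that overlaps Igf2r, was called higher at 1.45 (1.21 and 1.64). Smart-seq2 libraries do not mark strand, so reads of Igf2r and Airn cannot be told apart where the genes overlap, and the same holds for Mest with Copg2 and for Igf2 with Igf2os. Copg2 differed by -0.13 (-0.36 and -0.47), and the pooled value is nearer to 0 than either batch because the genotypes mix the batches unevenly.

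In the Dlk1 domain Meg3 and Mirg were called higher, whereas Dlk1 and Rian turned with the batch. Meg3 was at 3.35 ± 2.70 log2(TPM + 1) in control and 5.91 ± 3.60 in cKO cells, a difference of 2.56 (3.27 and 2.03), with medians of 6.36 and 121 TPM. Mirg, the host of Mir541, was at TPM of at least 1 in 3 of 27 control (11.1%, 2.35 to 29.2%) and 34 of 67 cKO cells (50.7%, 38.2 to 63.2%), and its mean differed by 2.65 (3.59 and 1.79). Rian, which lies between them, did not follow Meg3 and Mirg in both batches, at 0.84 in batch 1 and -1.54 in batch 2. Beside Peg10, Sgce (a sarcoglycan) was called higher at 1.495 (2.10 and 0.43), whereas Asb4 (an ankyrin repeat and SOCS box protein) was called lower at -2.36 (-1.81 and -3.61), with TPM of at least 1 in 18 of 27 control and 10 of 67 cKO cells. Genes of 1 domain thus lay on opposite sides. Reads from these long non-coding RNAs can be spliced RNA or unprocessed precursor, which gene-level TPM does not separate.

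**Figure D2:**
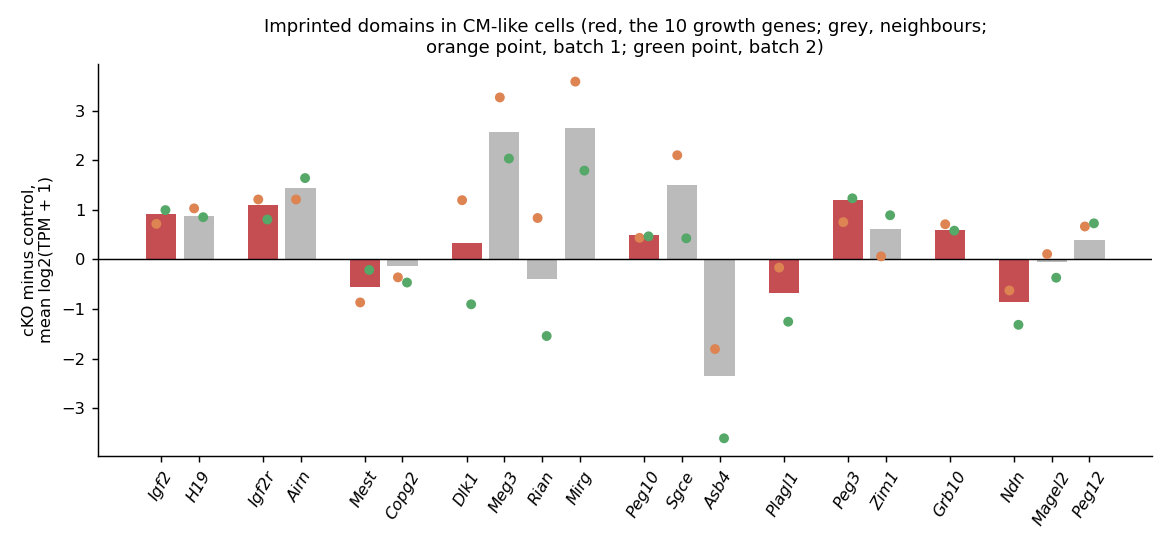
Difference of the mean log2(TPM + 1), cKO minus control in CM-like cells, for the 10 genes (red bars, except Impact, which has no listed neighbour and is left out) and their listed neighbours that entered the comparison (grey bars), with batch 1 (orange points) and batch 2 (green points). Meg3 and Mirg (2.56 and 2.65) and Asb4 (-2.36) extend beyond every one of the growth genes.

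Of the 27 other imprinted protein-coding genes that entered the comparison, 3 were called higher (Gnas, Nnat and Sgce) and 1 lower (Asb4), with a median difference of 0.34 (0.41 in batch 1 and -0.02 in batch 2). Gnas, the stimulatory G-protein subunit, differed by 1.24 (1.33 and 1.17) and Nnat, a small membrane protein, by 1.13 (0.51 and 0.70). The pooled value of Nnat lies above both batches because the genotypes mix the batches unevenly, and with equal batch weights it was 0.60, which is not called. Cdkn1c, the imprinted cell-cycle inhibitor, was at -0.26 and turned with the batch (0.86 and -1.56). Of the 8 imprinted non-coding genes, 3 were called higher (Airn, Meg3 and Mirg) and 0 lower, with a median of 0.88 (0.93 and 0.91).

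Of the 16 genes of IGF and insulin signalling that entered, 3 were called higher and 3 lower, with a median of 0.30 (0.12 in batch 1 and 0.05 in batch 2), and 6 were higher in both batches. Those higher were Irs2, a receptor adaptor (0.93 and 1.53 by batch), Mapk3, the kinase ERK1 (0.71 and 2.13), and Igfbp7, a secreted binding protein (1.59 and 1.32). Those lower were Akt1, a kinase downstream of the receptors (-0.83 and -1.67), Grb14, the relative of Grb10 (-0.18 and -2.84), and Igfbp4, a secreted binding protein (-0.41 and -2.45). Grb14 and Igfbp4 thus owed their calls mainly to batch 2, which held 8 control cells. Igf1r, the signalling receptor for Igf2, differed by 0.80 (0.22 and 1.22), and Igf1 was close to 0 in both genotypes, at 0.08 ± 0.21 and 0.09 ± 0.21 log2(TPM + 1). Of 9 genes of imprint maintenance (median 0.17, and 0.36 and -0.47 by batch), Smchd1, a chromatin protein of the inactive X chromosome and of imprinted clusters, was called higher (1.32), and 2 were called lower, Uhrf1, which brings the maintenance methyltransferase to DNA (-1.81), and Ctcf, the insulator protein (-1.10). Of the 16 mitotic genes 2 were called higher and 4 lower, with a median of -0.04 (0.16 in batch 1 and -0.87 in batch 2).

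In control cells the 10 genes were compared between classes that the markers had defined. The endothelial-like class held 22 cells (all 13 endothelial markers and 7 of 14 mesenchymal markers higher than in the other cells) and an unnamed cluster of 13 cells carried 6 of 6 epicardial and 11 of 14 mesenchymal markers. A further 5 cells were erythroid-like, and an unnamed cluster of 7 control cells was led by mitochondrial transcripts. Of the 10 genes 6 were at least 1 log2 unit higher in endothelial-like than in CM-like cells and 1 was lower, beside 21.1% and 8.22% of the 14517 genes measured. In the epicardial-mesenchymal cluster 6 were also higher and 1 lower, beside 19.9% and 7.2%. All of these 14 differences had the same sign in both batches, and the medians over all genes were 0.25 and 0.22. The shares over all genes include genes detected in only a part of the cells. A share among better expressed genes, which most of the 10 are, was not computed for these contrasts. A count over 10 genes is small, and no test of it was made.

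Igf2 was highest in the endothelial-like class. It was at 9.02 ± 1.30 log2(TPM + 1) in CM-like cells, 11.30 ± 0.48 in endothelial-like cells and 10.21 ± 0.45 in the epicardial-mesenchymal cluster. The endothelial-like cells ran from 1173 to 4439 TPM, and 24 of 27 CM-like cells lay below the lowest of them. The step from CM-like cells was 2.28 (2.44 and 2.06 by batch), larger than the 0.91 between genotypes. Mest followed the same order, with medians of 1633 TPM in CM-like cells, 4711 TPM in endothelial-like cells and 3332 TPM in the epicardial-mesenchymal cluster, although the latter classes did not differ beyond their spread (11.93 ± 0.99 and 11.58 ± 0.55).

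Dlk1 and Peg10 had their highest means in the epicardial-mesenchymal cluster. Dlk1 had TPM of at least 1 in 12 of its 13 cells (92.3%, 63.97 to 99.8%), against 4 of 27 CM-like (14.8%, 4.19 to 33.7%) and 5 of 22 endothelial-like cells (22.7%, 7.82 to 45.4%), and differed from CM-like cells by 3.23 on the log2 scale. Peg10 was at TPM of at least 1 in 11 of the 13 cells (84.6%, 54.6 to 98.1%), 11 of 22 endothelial-like cells (50%, 28.2 to 71.8%) and 1 of 27 CM-like cells, with means of 3.67 ± 1.69, 1.79 ± 1.79 and 0.25 ± 0.50. The intervals of the epicardial-mesenchymal cluster and of CM-like cells did not overlap for either gene. Against endothelial-like cells the intervals of the cluster did not overlap for Dlk1 but did for Peg10. The intervals cover counting error among cells of 1 control sample and do not measure differences between embryos. For Peg3 the order was CM-like (4.74 ± 2.10), endothelial-like (6.02 ± 1.13) and epicardial-mesenchymal cells (7.05 ± 0.90), and each step was smaller than the spread of the CM-like cells. From CM-like cells to the epicardial-mesenchymal cluster the difference was 2.31 (2.30 and 1.76 by batch), slightly above that spread. Of the 27 CM-like cells, 11 lay below the lowest cell of the cluster.

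Plagl1 differed between the non-muscle classes, while for Grb10 their means lay within the spread of the endothelial-like cells. Plagl1 was at 6.97 ± 1.27 log2(TPM + 1) in endothelial-like cells, 5.40 ± 1.80 in CM-like cells and 4.14 ± 2.62 in the epicardial-mesenchymal cluster. Grb10 and Ndn had their highest means in CM-like cells, Grb10 at 7.40 ± 0.80 against 6.21 ± 1.39 in endothelial-like cells (-1.19) and 7.25 ± 0.84 in the epicardial-mesenchymal cluster (-0.16, within the spread). Impact was at 3.11 ± 2.09, 4.75 ± 1.52 and 4.33 ± 2.01 in the same classes, and Igf2r at 6.39 ± 1.45, 6.86 ± 1.06 and 5.46 ± 1.32. Ndn was at 5.96 ± 2.56, 5.09 ± 2.80 and 5.64 ± 2.40, without a difference beyond its spread. In the 5 erythroid-like cells Impact was lowest (0.62 ± 1.28), while Grb10 stayed at 6.57 ± 1.30.

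**Figure D3:**
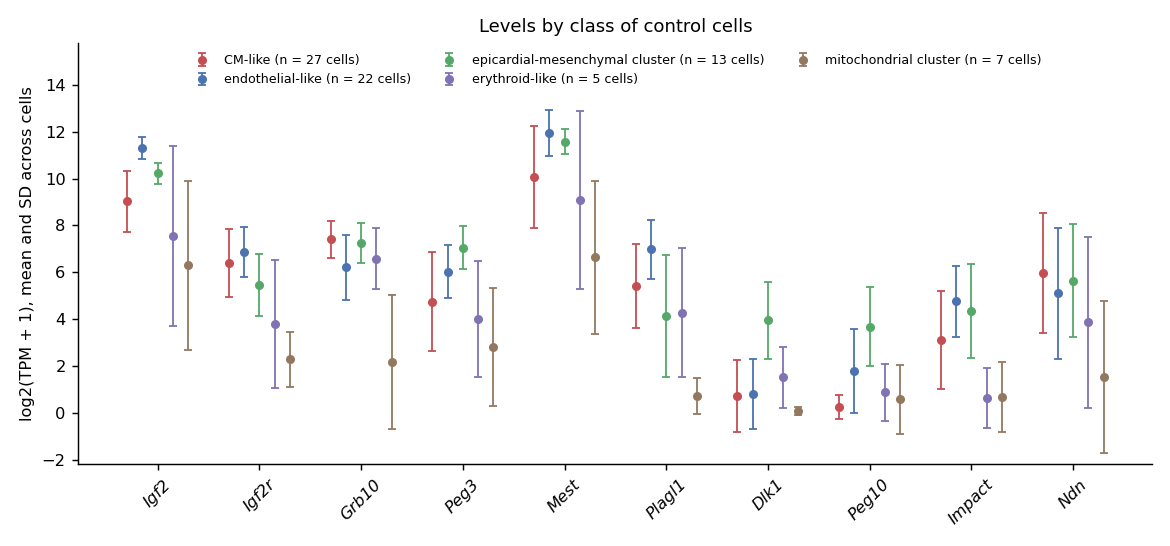
Mean and SD of log2(TPM + 1) across cells for the 10 genes in 5 groups of control cells (27 CM-like, 22 endothelial-like, 13 epicardial-mesenchymal, 5 erythroid-like and 7 of the mitochondrial cluster). Igf2 and Mest are highest in endothelial-like cells, Dlk1 and Peg10 in the epicardial-mesenchymal cluster, and the mitochondrial cluster is low for most genes.

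Across CM-like cells of both genotypes most pairs of the 10 genes were loosely related. After the mean of each genotype in each batch was subtracted, the 45 pairs had a median Pearson r of 0.16 over 94 cells (-0.07 to 0.42), and 38 were above 0. Peg3 (0.55), Ndn (0.52) and Impact (0.44) followed the number of detected genes most closely. With that number regressed out the median was 0.09, and the same genes had a median r of 0.03 with the 8139 genes seen in at least 50% of the CM-like cells. The highest pairs were Peg3 with Impact (0.42), Impact with Ndn (0.34) and Igf2r with Plagl1 (0.34), which went to 0.24, 0.15 and 0.30 with it regressed out. Peg3 with Impact differed by genotype, at 0.81 in control (also 0.81 without the control cell of 3805 detected genes) and 0.27 in cKO cells, a difference that was not tested. The median was 0.34 in the 27 control cells and 0.09 in the 67 cKO cells. It was 0.24 in control without the cell of 3805 detected genes. With the number of detected genes regressed out it was 0.16 in control and 0.07 in cKO cells. The cause of the gap was not tested.

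Over both genotypes Igf2 and H19, which are expressed from opposite parental copies, had the highest r of the pairs examined. They had r = 0.64 and Spearman's rho = 0.56 over 94 CM-like cells, 0.76 in control and 0.57 in cKO cells, and 0.64 with the number of detected genes regressed out. Without the 2 cells of each genotype farthest from its median H19 level, an alternative chosen after seeing the data, r was 0.55. It was then 0.61 in control and 0.51 in cKO cells, so the relation was weaker but did not rest on those cells alone. The other domain pairs were looser: 0.35 for Dlk1 with Meg3, 0.27 for Igf2r with Airn (0.13 in control), 0.26 for Mest with Copg2 and -0.03 for Peg10 with Sgce. Within the Dlk1 domain Meg3 with Rian was at 0.52 (0.15 in control and 0.62 in cKO cells) and Meg3 with Mirg at 0.39 (0.29 and 0.42).

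**Figure D4:**
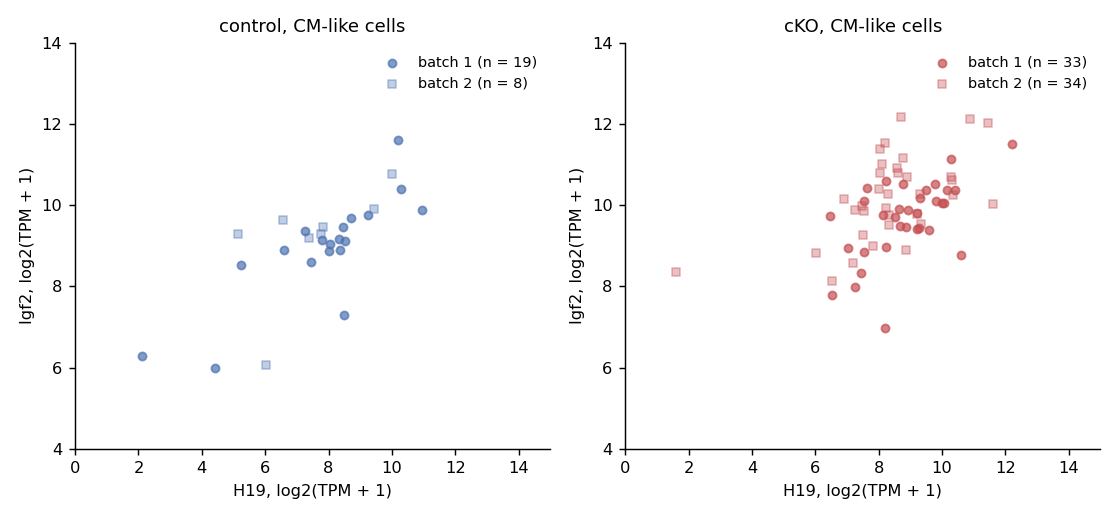
Igf2 against H19, both as log2(TPM + 1), in control (left) and cKO (right) CM-like cells, with batch 1 as circles and batch 2 as squares. Cells with more H19 hold more Igf2 in both panels (r = 0.76 and 0.57 after genotype-by-batch means are subtracted), and few cells lie at the low end.

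For the 8 genes at TPM of at least 1 in at least 50% of the CM-like cells, the genes with the most similar pattern were ranked by Pearson r over 94 cells after both corrections, among those seen in at least 50% of the cells. Each r named here is among the largest of 8138 values for its gene, so it is high by selection. H19 ranked first for Igf2 (0.64), ahead of Gnai2 (0.49). Mest lay closest to the natriuretic peptide gene Nppa (0.48, 0.64 in control and 0.44 in cKO cells), then to Pdia3, a disulfide isomerase of the endoplasmic reticulum, and Nppb, another natriuretic peptide gene (both 0.43). Igf2r lay closest to Vcan (0.54), an extracellular proteoglycan, then to the ribosomal protein gene Rpl7 and to Col4a2, a basement membrane collagen (both 0.52). Spearman's rho was 0.48 for Vcan, 0.32 for Rpl7 and 0.49 for Col4a2. Plagl1 lay closest to the imprinted gene Cdkn1c (0.44, 0.21 in control and 0.49 in cKO cells). Grb10 lay closest to Sptbn1 and Nebl (0.47 and 0.45), Peg3 to Morf4l2 (0.50), Impact to Mfn2 (0.39) and Ndn to Rcn1 (0.51). In control and cKO cells r was 0.68 and 0.37 for Sptbn1, and 0.72 and 0.34 for Nebl. It was 0.68 and 0.41 for Morf4l2, 0.72 and 0.30 for Mfn2, and 0.71 and 0.47 for Rcn1. With only the genotype-by-batch means subtracted, none of the 10 genes followed the mean of the 16 mitotic genes closely. The highest r was 0.25 for Plagl1, and 0.18 with the number of detected genes regressed out as well. Grb10 had the highest r with the mean of the 15 cardiomyocyte markers (0.34, only the genotype-by-batch means subtracted).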

How the data were processed

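Single-cell RNA was amplified by the Smart-seq2 protocol. The authors mapped the reads to mm10 with Salmon, kept cells with high mapping rates and deposited gene-level TPM values (version, annotation and read counts not given in the sources used here, so sequencing depth is unknown and the number of detected genes stands in for it). Column sums lay between 996133 and 999999. Columns were matched to labels by cell name, 143 of 170 labelled cells had a column, and the other 27 were not analysed here. Genotype was taken from the labels and batch from the labels of the cells.

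Values were computed with Python 3.11.15, numpy 2.4.6, pandas 2.3.3 and scipy 1.17.1 as log2(TPM + 1), with a pseudocount of 1. A gene entered when over 10 CM-like cells had a TPM above 0. Ward clustering (5 clusters) of 55 markers defined the classes, a name needing at least 3 markers. Doublets were not called. A gene was called at a difference of at least 1 with the same sign in both batches, and a class contrast at a difference of at least 1. Intervals for shares are exact Clopper-Pearson (95%), and a share of 0 allows up to 3 cells of the total. The design gives 1 sample a genotype, so no p-value was computed. Scripts were checked on simulated data. The 10 genes and all lists were chosen with earlier results of these data known. Named beside the 10 genes are those of the lists that were called, 10 preset genes (H19, Meg3, Rian, Mirg, Cdkn1c, Sgce, Copg2, Igf1r, Igf1 and Dgcr8), and up to 3 genes of most similar pattern for each. Alternatives covered the pseudocount, scaling, filter, batch, clustering and subsets of cells.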

Additional observations from a re-analysis of the deposited data

How the results depend on the processing

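No paired analysis was possible because the labels name no embryo and cell numbers do not match cells across genotypes. The median difference of the 10 genes (0.46) was -0.030 over all cells of each genotype, which differ in class, 0.26 with a pseudocount of 10, and 0.35 to 0.77 in the other alternatives. The number called higher (2) was 0 with a pseudocount of 10 or without cells of over 10% mitochondrial TPM, 1 in batch 2, in cells of 7000 to 11000 detected genes or as the mean of the within-batch differences, and 4 with 4 clusters. The number called lower (0) was 2 in batch 2 (Plagl1 and Ndn) and 1 (Ndn) without the control cell of 3805 detected genes. Of all genes, 955 were called higher and 931 lower. These counts were 1608 and 1806 with a pseudocount of 0.1, 285 and 214 with a pseudocount of 10, 1938 and 567 in batch 1, 1814 and 347 with 4 clusters, and 1897 and 524 without cells holding other-class markers. As the log2 ratio of mean TPM 3054 were higher (75.6% of calls against 50.6%, with a median over all genes of 0.34), and in batch 2 3282 were lower. Over all cells of each genotype Grb14 (0.94), Mapk3 (-0.062) and Nnat (-0.67) reversed, as did Ccnb1 (0.14) without cells holding other-class markers. Against CM-like cells, the endothelial-like class had 3 genes higher with a pseudocount of 10, and 2 lower with a pseudocount of 0.1 and 0 with mean TPM or 4 clusters. The epicardial-mesenchymal cluster had 3 higher with mean TPM, and 0 lower with mean TPM, a pseudocount of 10 or 4 clusters. The median pair r was 0.34 in control cells. The cause of these shifts was not tested.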
